A study of Homo sapiens with 4 samples.

Results

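The genes described here are the protein-coding genes on human chromosome 19 whose symbol is ZNF followed by a digit, as named in the RefSeq table of GRCh38. There were 250 of them among 1451 protein-coding genes on that chromosome and 20037 on chromosomes 1 to 22, X and Y. They include the joined entries ZNF559-ZNF177, ZNF816-ZNF321P and ZNF765-ZNF761, which share ends with single ZNF genes that are counted too. The entry ZNF470-DT is also among the 250. None of these entries had a peak at an end in any library. The rule that picks the 250 genes uses name and position alone and no peak. The class itself was chosen with earlier results of these data known. The peaks came from p53 ChIP-seq in H1299, an established human non-small-cell lung carcinoma line labelled p53-/-. All cells thus lacked p53 of their own, and either wild-type p53 (p53WT, 2 libraries) or the mutant CASM34 (2 libraries) was expressed in them. The series title speaks of cancer-associated synonymous mutations, which change the coding sequence without changing the amino acid. The labels do not say how the p53 forms were expressed or at what level, nor whether the libraries numbered 1 and 2 came from separate cultures. Chromatin was cut with micrococcal nuclease, sonicated and precipitated with the p53 antibody DO-1.

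ZNF genes code for zinc finger proteins, in which repeated fingers built around pairs of cysteine and histidine residues read DNA. Most of those on chromosome 19 also carry a KRAB domain, which recruits the co-repressor TRIM28 and with it histone methylation and heterochromatin, largely over transposable elements. They arose by repeated local duplication and so lie in clusters of related genes. p53 is a transcription factor that is best known for activating genes of growth arrest and apoptosis from response elements near their start sites.

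The lists held between 1604 and 4961 peaks a library, of which 148 to 234 were on chromosome 19. The deposited lists give no read counts, so depth is unknown, and a gene without a peak is not shown to lack p53. In both groups the library numbered 2 differed from the library numbered 1 in the number of peaks at genes, and results are therefore given per library. Where 4 values stand together without names, they are in the order p53WT 1, p53WT 2, CASM34 1, CASM34 2.

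Few chromosome 19 ZNF genes had a p53 peak at either end. A gene was called when a peak summit lay within 2 kb of either annotated end. In p53WT 1 no ZNF gene of 250 was called, which allows a share of up to 1.20% by a limit of 3 counts and 1.46% by the exact 95% interval, against 0.374% of all protein-coding genes. In p53WT 2, 9 were called (3.60%, exact Clopper-Pearson 95% interval 1.66 to 6.72), against 10.2% of all genes. In CASM34 1, 1 was called (0.400%, 0.0101 to 2.21), against 0.559% of all genes. In CASM34 2, 7 were called (2.80%, 1.13 to 5.68), against 6.94% of all genes. These intervals cover counting error only and treat genes as independent, although neighbouring genes can share a peak. Altogether 16 of the 250 genes were called in at least 1 library (6.40%, against 14.3% of all genes), and 234 in none.

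The call share did not separate p53WT from CASM34. The mean share with p53WT was 1.80% ± 2.55 (SD, n = 2), and with CASM34 it was 1.60% ± 1.70 (SD, n = 2). The difference of 0.20 percentage points was below either SD (two-sided exact permutation p = 1, where 2 libraries a group cannot give less than 0.333). The difference was -0.40 points between the libraries numbered 1 and 0.80 points between those numbered 2. It turned to -1.60 without p53WT 2 and to -1.0 without CASM34 1. No ZNF gene was called in both libraries of a group and in neither of the other. The same counts over all genes were 14 for p53WT (0.0699%) and 15 for CASM34 (0.0749%), shares that amount to less than 1 gene among 250.

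The shares lay below those of the other 1201 protein-coding genes of chromosome 19 in each of the 4 libraries. The latter were called in 0.250% (p53WT 1), 5.16% (p53WT 2), 0.50% (CASM34 1) and 3.75% (CASM34 2). ZNF genes minus other genes came to -0.25, -1.56, -0.10 and -0.95 percentage points, a mean of -0.71 (exact two-sided sign-flip permutation over libraries p = 0.125, the smallest that 4 libraries allow). In each library the share of the other chromosome 19 genes lay within the interval of the ZNF genes. With peaks of a −log10 q of 3 or more the mean difference shrank to -0.09 points and its sign differed between libraries, with 0.00, -0.22, 0.32 and -0.47.

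The 267 ZNF genes on other chromosomes had a higher call share than those on chromosome 19 in each of the 4 lists. Their shares were 0.375% (p53WT 1), 12.4% (p53WT 2, interval 8.66 to 16.9), 1.87% (CASM34 1) and 7.12% (CASM34 2, interval 4.34 to 10.9). Chromosome 19 ZNF genes minus these averaged -3.73 points (exact two-sided sign-flip permutation p = 0.125, again the smallest possible). The intervals of p53WT 2 did not overlap, and those of the other libraries did. Chromosome 19 as a whole thus had lower shares than all genes in both libraries numbered 2, for ZNF genes and other genes alike. Library number and share moved together in all 4 classes of gene, and the part that library number has in these differences was not tested.

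**Figure D1:**
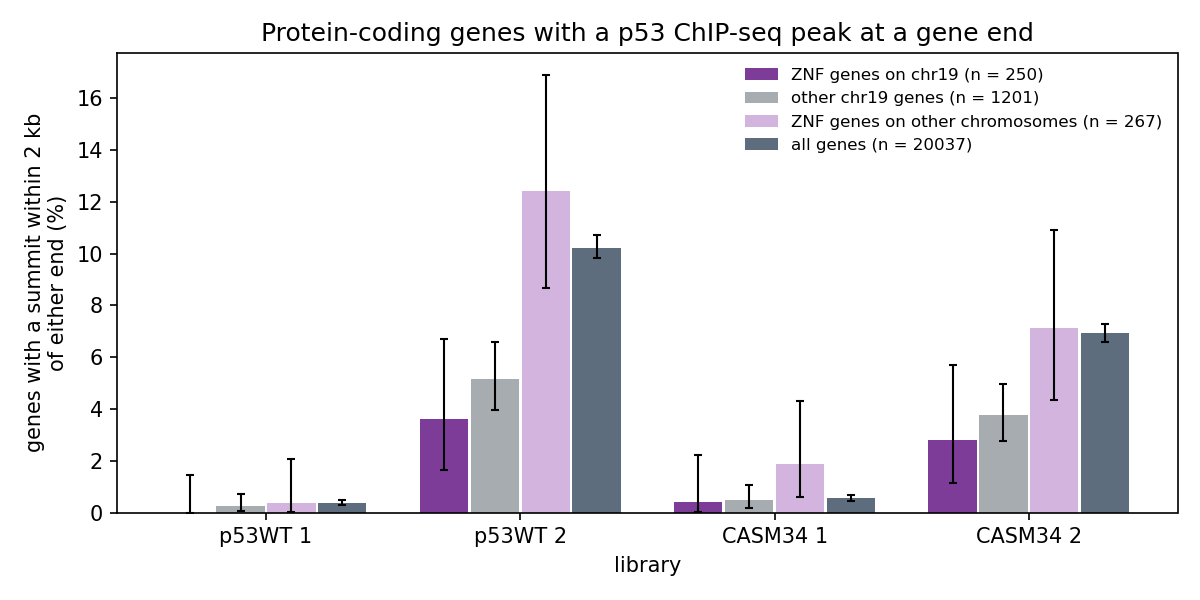
Share of protein-coding genes with a summit within 2 kb of either end (y axis, percent) in each library (x axis), for 4 classes of gene; bars start at 0 and whiskers are exact 95% intervals. The ZNF genes on chromosome 19 have the lowest bar in each library, from 0 in p53WT 1 to 3.60% in p53WT 2, and their whiskers overlap those of the other chromosome 19 genes throughout.

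The only gene called in 2 libraries was ZNF83, and none was called in 3 or 4, as 0.349% of all genes were. ZNF83 lies on the minus strand of chromosome 19 from 52612377 to 52690496. In p53WT 2 its peak ran from 52689753 to 52689945, with a summit 665 bp inside the start and a deposited −log10 q of 1.35, at rank percentile 8.21 of that list (a high percentile means a strong peak). In CASM34 2 its peak ran from 52689467 to 52689658, with a summit 931 bp inside the start, a −log10 q of 3.20 and rank percentile 42.5. Both thus fell in the first kilobase of the gene, but the intervals did not overlap: 94 bp separated them, and 266 bp their summits. The nearest summit lay 497 kb from a gene end in p53WT 1 and 4656 kb in CASM34 1. The interval also lies inside LOC122539214, another coding entry with an end there, so the peak cannot be assigned to 1 of the genes.

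A gene called in both libraries numbered 2 was thus rare. ZNF83 made up 11.1% of the ZNF genes called in p53WT 2 and 14.3% of those called in CASM34 2, and 0.400% of all 250. Over all genes 613 were called in both (3.06%), which was 29.9% of the calls of p53WT 2 and 44.1% of those of CASM34 2. The other chromosome 19 genes gave 7 of 1201, or 11.3% and 15.6% of their calls. At this number of calls a difference in agreement between these classes was not tested.

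In p53WT 2 the strongest peak at a ZNF gene lay at ZNF682 (19995131 to 20039505, minus strand). Its summit was 373 bp inside the start, with a −log10 q of 5.79, a deposited fold over background of 6.53 and rank percentile 80.5. The nearest summit to ZNF682 was 332 kb away in CASM34 1, 377 kb in CASM34 2 and 4063 kb in p53WT 1. ZNF507 came next in that library, with a summit 160 bp inside its start (32345610 to 32387667, plus strand), a −log10 q of 4.78 and rank percentile 76.0. The nearest summit to ZNF507 was 304 kb away in CASM34 2 and 3884 kb in both libraries numbered 1. ZNF555 followed, with a summit 144 bp inside its start, a −log10 q of 3.27 and rank percentile 56.8. These 3 were the p53WT 2 calls with a −log10 q above 3.

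ZNF575 was the only call nearest to the far end of the gene. Its p53WT 2 summit (43535144) lay 943 bp before the annotated end and 4309 bp past the start, with a −log10 q of 2.63. ZNF540 had a summit 77 bp before its start with a −log10 q of 2.23, and the coding entry LOC124904708 also has an end there. ZNF700, ZNF383 and ZNF71, named after their values were seen, had weaker peaks, at −log10 q of 1.95, 1.71 and 1.35, where 1.31 is the lowest in the list. The ZNF71 and ZNF83 peaks of p53WT 2 thus stood at rank percentile 8.21, near the bottom of the list.

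In CASM34 2 the strongest peak at a ZNF gene was that of ZNF302 (34675979 to 34686396, plus strand). Its summit lay 1919 bp inside the start, near the limit of the rule, with a −log10 q of 4.90, a fold of 5.71 and rank percentile 64.5. The gene SCGB2B2 and the pseudogenes ZNF807P and SCGB1B2P also have an end within 2 kb of that summit. ZNF548 came next, with a summit 264 bp inside its start, a −log10 q of 3.46 and rank percentile 48.6, while its nearest summit in p53WT 2 was 181 kb away. ZNF823, named after its values were seen, had a summit 148 bp inside its start, with a −log10 q of 2.43. ZNF30, a neighbour of ZNF302 in the same cluster and also named after its values were seen, had a weak peak 1910 bp inside its lower end, at a −log10 q of 1.69.

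ZNF529 and ZNF382 shared 1 peak of CASM34 2. ZNF382 codes for a KRAB repressor whose promoter is methylated in several cancers. The 2 genes run apart from overlapping starts, ZNF529 on the minus strand (36543613 to 36605543) and ZNF382 on the plus strand (36605313 to 36634114). The peak ran from 36604924 to 36605351, the widest at a ZNF gene end with 428 bp, and its summit (36605103) lay 440 bp inside ZNF529 and 210 bp before ZNF382. Its −log10 q was 2.45 and its rank percentile 26.9. The nearest summit to ZNF382 lay 310 kb away in p53WT 1, 187 kb in p53WT 2 and 114 kb in CASM34 1. The 7 calls of CASM34 2 therefore rest on 6 summits, and the 17 calls of the 4 libraries on 16.

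ZNF566 was the single call of CASM34 1. Its summit lay 1780 bp before the start (gene 36445119 to 36489561, minus strand), with a −log10 q of 4.13, a fold of 5.18 and rank percentile 29.0. ZNF566-AS1, an antisense gene, also has an end within 2 kb. The nearest summit to ZNF566 was 26.6 kb away in p53WT 2, 116 kb in CASM34 2 and 150 kb in p53WT 1.

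**Figure D2:**
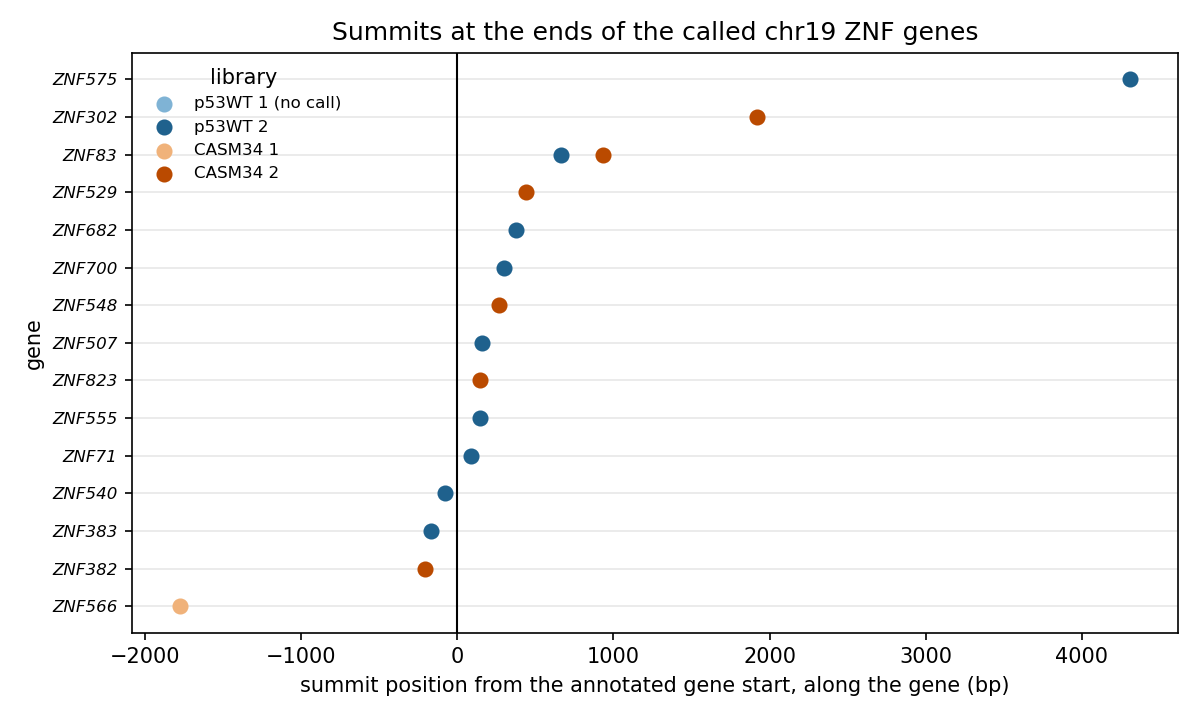
Position of each summit along its gene (x axis, bp from the annotated start, negative before it) for the called ZNF genes with a known strand (y axis), coloured by library. Points gather around the start: 11 of 16 calls lie within 500 bp of it on either side, ZNF575 stands at 4309 bp near its far end, and ZNF83 alone has points from 2 libraries.

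Of the 2 ends of a ZNF gene, nearly all called peaks lay at the start. Strand was taken from the RefSeq promoter table, which held 219 of the 250 genes and 15 of the 16 called ones; ZNF30 was not matched. Of 16 calls with a strand, 15 were nearest to the start and 1 to the far end, with a median distance of 280 bp from the start and a range from -1780 to 4309 bp. The same split was not made for other genes, so it is not shown to be particular to ZNF genes. The summit lay inside the gene in 13 of 17 calls. The peaks were narrow, with a median of 193 bp and a range from 171 to 428 bp. Another coding gene had an end within 2 kb of the summit in 6 of the 17 calls, and a non-coding gene in 5.

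The peaks at ZNF gene ends had low deposited values, with medians near those at other chromosome 19 gene ends. In p53WT 2 the −log10 q at ZNF gene ends had a median of 2.23 (1.35 to 5.79, 9 peaks), against 2.28 at the other chromosome 19 gene ends (1.35 to 8.70, 54 peaks) and 2.73 at all gene ends (up to 47.8). In CASM34 2 the median was 2.83 (1.69 to 4.90, 6 peaks), against 2.67 (1.33 to 15.4, 38 peaks) and 2.88 at all gene ends. The highest peak at a ZNF gene end was thus below the highest at other chromosome 19 genes in both libraries. That sets 9 peaks beside 54 and 6 beside 38, and a larger set tends to hold a higher maximum. Among peaks with a −log10 q of 5 or more, ZNF682 in p53WT 2 was the only call left. ZNF genes minus other chromosome 19 genes then came to 0.00, -0.35, -0.08 and -0.33 percentage points. The share over all genes was not computed at that threshold, so the loss is not shown to be particular to ZNF genes.

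**Figure D3:**
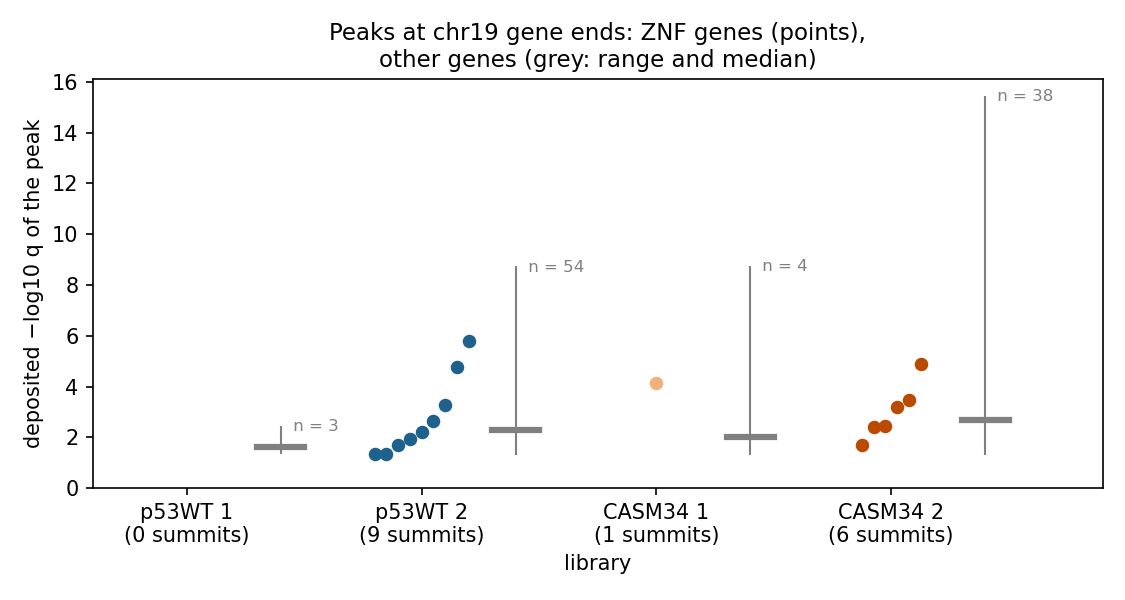
Deposited −log10 q (y axis) of each peak within 2 kb of a chromosome 19 ZNF gene end (points) by library (x axis), with the range and median of peaks at other chromosome 19 gene ends in grey. The points span 1.35 to 5.79 in p53WT 2 and 1.69 to 4.90 in CASM34 2, around the grey medians of 2.28 and 2.67.

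Of the start windows in the RefSeq table (GRCh38.p14, 250 bases before to 50 after a start), 3 held a summit, and these are shown to place the peak within the promoter. Each is written along the gene, and capitals mark the 21 bases centred on the summit, in CASM34 2 for ZNF382 and in p53WT 2 for ZNF383 and ZNF540:
ZNF382, chr19:36605063-36605362, plus strand: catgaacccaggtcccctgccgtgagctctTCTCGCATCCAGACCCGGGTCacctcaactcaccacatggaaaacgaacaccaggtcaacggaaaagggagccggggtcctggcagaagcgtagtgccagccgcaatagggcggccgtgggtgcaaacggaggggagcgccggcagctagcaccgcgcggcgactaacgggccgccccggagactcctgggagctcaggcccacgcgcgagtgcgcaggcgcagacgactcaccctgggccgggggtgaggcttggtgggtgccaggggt
ZNF383, chr19:37217964-37218263, plus strand: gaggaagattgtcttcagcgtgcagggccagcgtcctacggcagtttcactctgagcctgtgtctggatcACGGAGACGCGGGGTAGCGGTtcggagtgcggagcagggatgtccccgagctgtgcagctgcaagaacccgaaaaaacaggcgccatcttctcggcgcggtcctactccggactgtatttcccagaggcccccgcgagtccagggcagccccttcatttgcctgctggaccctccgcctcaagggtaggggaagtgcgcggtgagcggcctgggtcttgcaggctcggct
ZNF540, chr19:37551124-37551423, plus strand: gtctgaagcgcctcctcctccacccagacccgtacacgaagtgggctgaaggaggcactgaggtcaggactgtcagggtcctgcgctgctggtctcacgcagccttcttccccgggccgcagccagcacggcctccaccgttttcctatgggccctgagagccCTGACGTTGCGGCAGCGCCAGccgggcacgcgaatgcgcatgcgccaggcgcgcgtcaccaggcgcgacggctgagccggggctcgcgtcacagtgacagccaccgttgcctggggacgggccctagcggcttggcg
The ZNF382 window had 68.0% G and C and 27 CG pairs, that of ZNF383 63.7% and 23, and that of ZNF540 69.7% and 30. None of the 3 holds a match to the p53 half-site, the 10-base unit of which p53 response elements carry 2 copies. That says only that these letters are not in these windows.

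The p53 half-site was then counted in all start windows. The search used the consensus on both strands at once, as it reads the same on each. A match lay in 18 of 271 ZNF windows (6.64%), in 64 of 1277 windows of other chromosome 19 genes (5.01%) and in 2329 of all 35116 windows (6.63%). Among windows of called ZNF genes it lay in 3 of 20 (15%), those of ZNF540, ZNF575 and ZNF548, and none of these matches lay inside the gene's peak. Only at ZNF548 was it close, 382 bp from the CASM34 2 summit. That window is shown with the match in capitals:
ZNF548, chr19:57389604-57389903, plus strand: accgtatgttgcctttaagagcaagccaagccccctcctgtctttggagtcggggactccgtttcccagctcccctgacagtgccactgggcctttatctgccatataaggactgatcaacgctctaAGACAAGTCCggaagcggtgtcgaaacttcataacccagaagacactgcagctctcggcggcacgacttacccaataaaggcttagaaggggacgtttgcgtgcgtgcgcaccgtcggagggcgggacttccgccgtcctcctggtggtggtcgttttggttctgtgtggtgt
The full element, a pair of half-sites up to 13 bases apart, was in none of the 271 ZNF windows and in 10 of all 35116 (0.0285%).

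A second short element, CCGGAAG, was counted in the same windows on both strands. It holds the core bound by ETS factors, which act at many housekeeping promoters, and it can share bases with the p53 half-site, as in the ZNF548 window. It lay in 111 of 271 ZNF windows (41.0%), against 13.2% of windows of other chromosome 19 genes and 10.3% of all windows. Windows of called ZNF genes had it in 4 of 20 and those of the rest in 107 of 251 (42.6%). A window is counted as called when its gene was called at either end, and most of the 20 held no summit themselves. Among the other chromosome 19 genes, 16 of 106 windows of called genes had it (15.1%), beside the 13.2% over all of them. The called windows had a median of 63.0% G and C and 25.0 CG pairs, and the uncalled ones 59.3% and 20.0. Among the other chromosome 19 genes the called windows also had more CG pairs, with a median of 30 against 21.0 over all of them. Whether base composition has a part in the calls was not tested.

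Peaks inside ZNF gene bodies were also few. A summit lay in the body of 1 gene in p53WT 1 (0.400%, against 0.878% of all genes) and of 13 genes in p53WT 2 (5.20%, against 11.6%). With CASM34 the count was 0 in library 1 (against 1.13%) and 6 in library 2 (2.40%, against 7.56%). ZNF83 alone had one in both libraries numbered 2 (0.400%, against 3.51% of all genes), and 7.60% of ZNF genes had one in some library, against 16.1% of all genes. Per length of gene body, merged over overlapping genes, ZNF genes had 0.141 and 1.69 summits per Mb in the p53WT libraries 1 and 2, and 0 and 0.844 in the CASM34 libraries. The other chromosome 19 genes had 0.365, 3.08, 0.324 and 1.91 in the same order. The ZNF genes are longer, with a median of 23.3 kb against 12.7 kb.

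Of the genes with a summit in the body, 7 had none at an end, and they are named here after their values were seen. The strongest was ZNF43 in p53WT 2, with a summit 16127 bp past its start, a −log10 q of 4.73 and rank percentile 75.1. ZNF723 followed with a −log10 q of 3.73, 20381 bp past its start. ZNF563, ZNF557 and ZNF329 had summits of p53WT 2 at −log10 q of 2.82, 2.02 and 2.02. ZNF69 holds the peak of ZNF700, which lies inside it. ZNF665 was the only ZNF gene with a summit in p53WT 1, at 53187713, 5645 bp from its higher end, with a −log10 q of 4.42 and rank percentile 28.1. With ends and bodies together 23 of the 250 genes had a summit in some library and 227 had none. The share of all genes with either in some library was not computed. Per library, 1 (p53WT 1), 15 (p53WT 2), 1 (CASM34 1) and 7 (CASM34 2) of the 250 had one. Over all genes the shares were 0.948%, 13.7%, 1.28% and 9.11% in the same order.

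The called genes were spread over many clusters, in small counts. ZNF genes were grouped along the chromosome wherever neighbours were no more than 500 kb apart, which gave 20 groups, 7 of them single genes. Called genes fell in 10 groups. The group from ZNF565 to ZNF573 (36182060 to 37779586) had the most, ZNF566, ZNF529, ZNF382, ZNF383 and ZNF540. These are 5 of 26 genes (19.2%), against 14.3% of all genes called in some library, and no difference between groups was tested. Of the 5, ZNF529 and ZNF382 rest on the same peak. The group from ZNF302 to ZNF792 had 2 of 5. The 3 largest groups had 1 called gene each, among 43 genes from ZNF264 to ZNF446, 41 from ZNF175 to ZNF331, and 37 from ZNF101 to ZNF254. The group of 14 genes from ZNF414 to ZNF846 had none.

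The group from ZNF565 to ZNF573 also held the densest peaks between ZNF genes, a stretch picked out after its values were seen. From 36271008 to 36308692, over 37.7 kb with no coding gene, each library had many summits: p53WT 1 had 7, p53WT 2 had 10, CASM34 1 had 11 and CASM34 2 had 9. Of the 7 in p53WT 1, only 1 was matched within 200 bp in all the other libraries. The −log10 q in this stretch reached 10.4 (p53WT 1), 14.6 (p53WT 2), 11 (CASM34 1) and 7.98 (CASM34 2). In each list with a peak at a ZNF gene end, that was above the highest there. By fold the order was the other way. The fold in the stretch reached only 4.08 (p53WT 1), 4.11 (p53WT 2), 3.77 (CASM34 1) and 3.20 (CASM34 2). The highest fold at a ZNF gene end was 6.53 in p53WT 2, 5.18 in CASM34 1 and 5.71 in CASM34 2. The nearest genes were ZNF565, 25.1 kb to the left, and ZFP14, another zinc finger gene, 25.8 kb to the right, so none of these summits counted for a ZNF gene. Within the spans of all 20 groups, 15.7 Mb, lay 10, 38, 13 and 23 summits, and 3, 28, 2 and 14 without this stretch. Both libraries numbered 1 thus had most of their summits in the spans of ZNF groups at this 1 place.

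A smaller run lay between ZNF383 and ZNF875, with 3 summits of p53WT 2 and 2 of CASM34 2 from 37270466 to 37297592 and none of the libraries numbered 1. It was 21.7 kb from ZNF383 and 15.2 kb from ZNF875. Elsewhere, between ZNF557 and ZNF358, all 4 libraries had a summit between 7450984 and 7450992, inside ARHGEF18. Its −log10 q was 37.4 and 41.1 in the p53WT libraries 1 and 2, and 53.3 and 48.4 in the CASM34 libraries 1 and 2. This was the same position to within 9 bp, 62.9 kb from ZNF358, and it too was chosen after its values were seen. Between ZNF254, the last ZNF gene before the centromere, and UQCRFS1 lay 130, 115, 123 and 92 summits, the nearest of them 722 kb from ZNF254.

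The nearest summit was mostly far away. The median distance from a ZNF gene end was 1226 kb in p53WT 1, 202 kb in p53WT 2, 3352 kb in CASM34 1 and 412 kb in CASM34 2. For the other chromosome 19 genes it was 1081, 135, 1142 and 196 kb. Over all genes it was 2881, 174, 2212 and 330 kb, so the ZNF median was the shorter of these in p53WT 1 only. Within 10 kb of an end, 1, 16, 2 and 9 ZNF genes had a summit, or 0.400%, 6.40%, 0.800% and 3.60%, against 0.968%, 13.8%, 1.14% and 9.44% of all genes. For 143 genes (57.2%) no library had a summit within 100 kb of an end, against 44.1% of the other chromosome 19 genes. Just inside the 2 kb limit were ZNF302 at 1919 bp, ZNF30 at 1910 bp and ZNF566 at 1780 bp. Just outside were ZNF526 at 3532 bp and ZNF557 at 3977 bp in p53WT 2, ZNF329 at 4472 bp in p53WT 2, and ZNF101 at 4738 bp in CASM34 1.

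**Figure D4:**
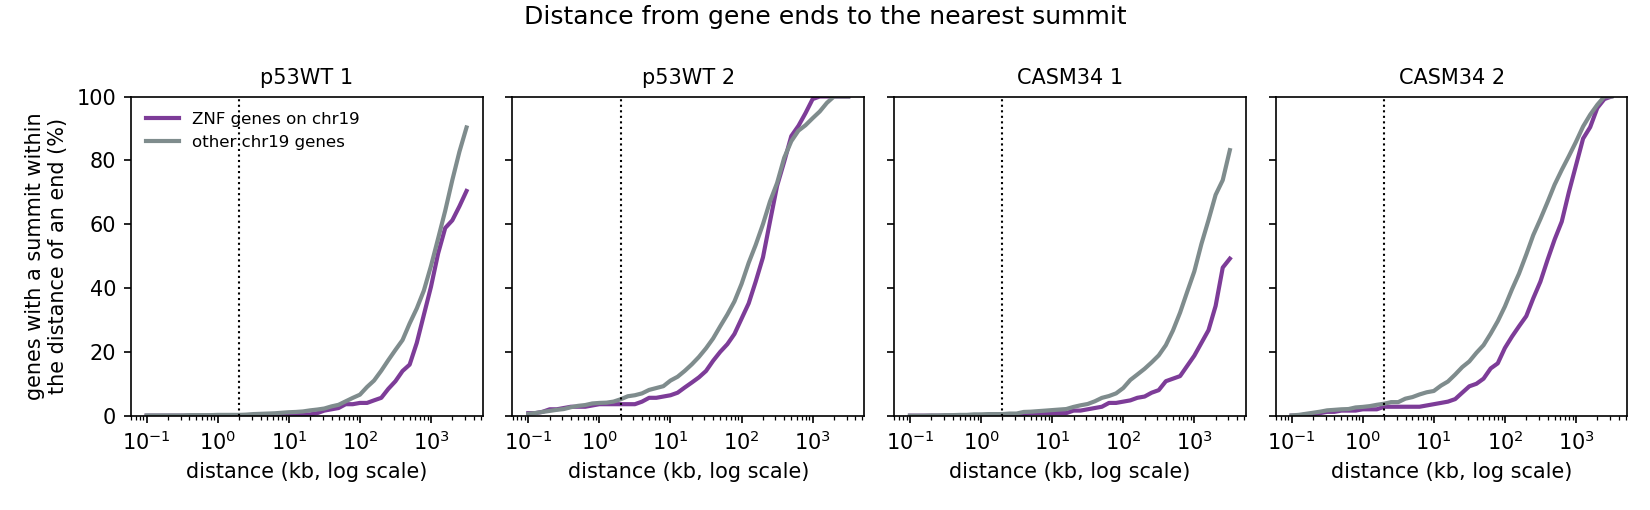
Share of genes (y axis, percent) with a summit no farther from an end than the distance on the x axis (kb, log scale), for ZNF genes and other genes of chromosome 19, 1 panel a library; the dotted line marks 2 kb. The ZNF curve is below the other curve at 10, 50 and 100 kb in each panel, for example 30.4% against 41.3% within 100 kb in p53WT 2.

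Among ZNF genes with a known role, grouped in lists, 2 of 24 were called in some library, against 6.40% of all chromosome 19 ZNF genes and 14.3% of all genes. Genes that silence transposable elements (ZNF91 and ZNF93, which act on SVA and LINE-1 elements, with ZNF611, ZNF649, ZNF765 and ZNF808) had 0 of 6 in each library; the closest summits lay 13 kb from ZNF611 in p53WT 2 and 13.2 kb in CASM34 2. Genes with links to p53 or DNA damage had 0 of 3. Of these ZNF420, known as APAK, a repressor of p53-driven apoptosis genes, had its nearest summit 713 kb away in p53WT 1, 87.7 kb in p53WT 2, 517 kb in CASM34 1 and 140 kb in CASM34 2. ZNF350, a BRCA1 partner, was no closer than 245 kb, and ZNF432 no closer than 312 kb.

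Genes of chromatin and histone RNA also had 0 of 3. ZNF274, which brings the methyltransferase SETDB1 to the ends of other ZNF genes, had a summit 32.4 kb away in p53WT 2, and ZNF473, a factor of histone RNA processing, 51.1 kb away in p53WT 1. Of 8 genes known for promoter methylation in cancer or imprinting, ZNF382 alone was called, in CASM34 2, while ZNF132, ZNF154, ZNF177, ZNF331, ZNF577, ZNF582 and ZNF671 were not. Of 4 developmental genes ZNF507 alone was called, in p53WT 2, while ZNF536, ZNF568 and ZNF296 were not. The lists are short, and no test was made of their counts.

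The partners of KRAB repression were called in 0 of 18 (p53WT 1), 2 (p53WT 2), 0 (CASM34 1) and 2 (CASM34 2). The share was 11.1% in both libraries numbered 2, against 10.2% of all genes in p53WT 2 and 6.94% in CASM34 2. TRIM28, the co-repressor itself, lies on chromosome 19 and had no summit within 393 kb. HDAC2, a histone deacetylase, was called in both libraries numbered 2, with summits 97 and 172 bp from its higher end and −log10 q of 2.43 and 2.01. CBX1, a heterochromatin protein that reads histone methylation, had a −log10 q of 7.12 in p53WT 2, above any peak at a chromosome 19 ZNF gene end. CHD4, a chromatin remodeller, had 3.32 in CASM34 2. Of 17 chromosome 19 genes listed with other zinc finger symbols, such as ZFP and ZSCAN, 2 were called in p53WT 2 (ZFP82 and ZIK1) and 1 in CASM34 2 (ZFP30), with none in the libraries numbered 1. Those are 11.8% in p53WT 2 and 5.88% in CASM34 2, beside 10.2% and 6.94% of all genes. One of the 17, ZFP36, belongs to another zinc finger family, and the list was kept as written.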

How the data were processed

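Peaks, genes and promoter windows bear on these results as follows. Trim Galore, Bowtie2, bedtools and GRCh38 are named in the submitters' processing notes. Not given in the sources used here are the peak caller, its control and its threshold. Each library has 1 deposited list, called per library. A row gives an interval, a summit, the authors' fold (the ratio of signal over background), a −log10 p, a −log10 q (at least 1.31) and a score derived from it, all as deposited by the authors and compared only within a list. No depth is given, so precision beyond counting error is unknown.

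Where rows shared an interval, only the one with the highest −log10 p was kept. A summit is column 2 plus column 10, printed counted from 1; counted from 0 the calls were the same. Genes and positions came from RefSeq (GRCh38.p14), whose table gives no exons. The 31 ZNF genes with no promoter entry had no strand. Group shares were compared with exact permutation tests over libraries; their p-values reflect the spread between libraries alone, possibly a technical one. No test over genes was made. The members, lists and alternatives were chosen with earlier results of these data known, and the motifs, the runs of peaks and the use of the libraries numbered 2 alone after seeing the data. Genes named by rule were those called in 3 or 4 libraries, up to 15 called in 2, the 5 strongest per library, those with a body summit in 3 or 4 libraries, and the listed genes. The protein sequences that the plan asked for were not used here. The assignment of summits to genes was tested on simulated data. Alternatives were other thresholds, distances, ends, list lengths and comparators, and each library left out. Python 3.11.15, pandas 2.3.3, numpy 2.4.6, scipy 1.17.1 and matplotlib 3.10.9 were used.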

Additional observations from a re-analysis of the deposited data

How the results depend on the processing

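Of 113 values recomputed under alternatives, 86 kept their direction or stayed within 1.5 times, 24 moved and 3 reversed. The cause was not tested except where noted. Among peaks with a −log10 q of 3 or more the genes called were 3 in p53WT 2 and 3 in CASM34 2, with 0 in both libraries numbered 2, and genes with a body summit were 5 and 3. The p53WT minus CASM34 difference was then -0.20 points. With 5 or more the calls were 1 in p53WT 2, 0 in CASM34 1 and 0 in CASM34 2, with 0 in both libraries numbered 2, and body counts were 0 in p53WT 1, 1 in p53WT 2 and 0 in CASM34 2. When each list was cut to its best 1604 peaks, calls were 2 in p53WT 2 and 1 in CASM34 2, with 0 in both, body counts were 3 and 1, and the group difference was 0.00. Fewer peaks enter each of these by construction. ZNF genes minus other chromosome 19 genes then averaged -0.09 points (−log10 q of 3 or more), -0.19 (5 or more) and -0.27 (lists of equal length). Shares over all genes were not computed under these settings, so the counts alone show no change particular to ZNF genes. Within 1 kb CASM34 1 had 0 calls. Within 10 kb p53WT 1, p53WT 2 and CASM34 1 had 1, 16 and 2, or 0.400%, 6.40% and 0.800%, against 0.968%, 13.8% and 1.14% of all genes. With the whole gene and 2 kb on each side p53WT 1 and p53WT 2 had 1 and 15, against 0.948% and 13.7% of all genes.

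Leaving out 1 library at a time, the group difference ran from -1.60 to 2.00 points, and ZNF genes minus other chromosome 19 genes from -0.92 to -0.43. Against other chromosome 19 genes the latter stayed below 0 under every alternative run, from -2.59 to -0.09. It was -3.73 against ZNF genes on other chromosomes and -2.86 against all other genes, and was -1.25 with the libraries numbered 2 alone, although single libraries turned positive at a −log10 q of 3 or more, with lists of equal length and at gene starts. With the number in the titles as a replicate block the group difference was 0.20 points (exact sign-flip permutation p = 1, smallest possible 0.5). Nothing says that the numbers pair the libraries; deviations from the group means correlated at 0.26 over 20037 genes and at 0.09 over the 250 ZNF genes.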
